A study of Oryza sativa Japonica Group with 4 samples.

Results

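NAS1 and NAS2 encode nicotianamine synthases of rice (Oryza sativa). They were taken as all probe sets on the GeneChip Rice Genome Array that the array annotation assigns to either gene alone, which gave 1 probe set for each gene: 2 of 57258 probe sets, and 2 of 17905 genes with a probe set of their own. The 4 arrays measured roots of japonica cultivar TNG67, all grown without added nitrogen (−N) in hydroponic culture. At 17 days of age, roots were taken from seedlings in −N solution or from seedlings given 2.5 mM glutamate (+Glu) for 30 min. For the arrays, the paper does not state whether the −N seedlings were also moved to fresh solution. Each group had 2 biological replicates, and whether plants were pooled for a replicate is not stated. The comparison of +Glu with −N asked which root transcripts responded quickly to glutamate. Both genes were chosen by their measured difference between these groups, so that difference is a description with no test.

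Nicotianamine synthase joins molecules of S-adenosylmethionine into nicotianamine, a small chelator that binds iron, zinc, copper and other metals and keeps them soluble inside the plant. In grasses nicotianamine is also the starting point of phytosiderophores, the mugineic acids that roots release to bring ferric iron into solution and then take back up as a complex. Rice roots additionally take up ferrous iron, and transcripts of NAS1 and NAS2 are known as markers of iron shortage in rice roots. The gene table places both genes side by side on chromosome 3, with 0 genes between them. No coordinates are given, because the genome build behind the arrays is not given in the sources used here.

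In the −N roots, NAS1 (gene ID 4332608) gave an intensity of 30.3 for replicate 1 and 101.1 for replicate 2. After glutamate the intensities were 317.5 and 224.8 for replicates 1 and 2. Both +Glu arrays lay above both −N arrays, and the lower +Glu array was 2.22-fold the higher −N array. Means of the groups were 65.7 ± 50.1 for −N and 271.2 ± 65.5 for +Glu (SD, n = 2). On the log2 scale the mean difference was 2.27, a 4.83-fold higher geometric mean in +Glu, beside a within-group SD of 0.91.

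NAS2 (gene ID 4332607) had intensities of 38.5 and 88.4 in −N replicates 1 and 2, and of 282.9 and 168.6 in +Glu replicates 1 and 2. Its groups did not overlap either, with the lower +Glu array at 1.91-fold the higher −N array. Means were 63.5 ± 35.3 for −N and 225.7 ± 80.8 for +Glu (SD, n = 2). The log2 difference was 1.90, or 3.74-fold, with a within-group SD of 0.71. Both +Glu arrays stood above both −N arrays for 14.9% of all genes. Nothing is read from the members' 2 of 2, since this contrast chose them. RNA came from whole roots, so a change in the number of cells that make a transcript and a change in the transcript per cell cannot be told apart.

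**Figure D1:**
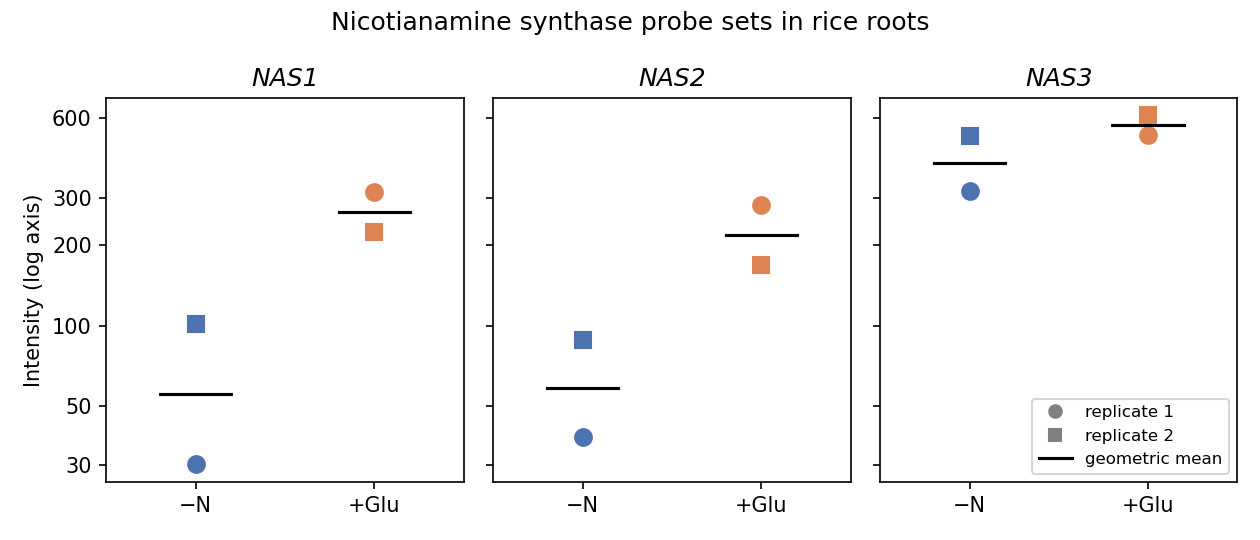
Intensity (log axis) of the NAS1, NAS2 and NAS3 probe sets in the −N and +Glu root arrays, with 1 point per array (circle, replicate 1, square, replicate 2) and a bar at the geometric mean of each group. NAS1 and NAS2 ran from 30.3 to 317.5 and from 38.5 to 282.9 with a gap between the groups, whereas the lowest +Glu array of NAS3 was 1.01-fold its highest −N array.

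The size of the difference depended on the replicate. NAS1 was 10.5-fold higher in +Glu replicate 1 than in −N replicate 1, but 2.22-fold higher in +Glu replicate 2 than in −N replicate 2. For NAS2 the same ratios were 7.35-fold and 1.91-fold. In log2 these were 3.39 and 1.15 for NAS1, and 2.88 and 0.93 for NAS2. Ranked among 17905 genes by the difference between the arrays of replicate 1, NAS1 was 2nd and NAS2 4th. By the arrays of replicate 2, NAS1 ranked 374 and NAS2 558, and by the mean of both they ranked 17 and 45.

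The −N arrays carried most of this gap. NAS1 was 3.34-fold higher in −N replicate 2 than in −N replicate 1, a gap that 1.18% of all genes matched or exceeded in either direction, and NAS2 was 2.3-fold higher, a gap reached by 5.12% of genes. In +Glu the order was the other way round, with replicate 1 above replicate 2 by 1.41-fold for NAS1 and 1.68-fold for NAS2. Most genes did not share that +Glu order: 79.6% were higher in +Glu replicate 2 than in replicate 1. Most did share the −N order, with 76.4% higher in −N replicate 2 than in replicate 1. The order of NAS1 and NAS2 over the arrays, with −N replicate 1 lowest, then −N replicate 2, +Glu replicate 2 and +Glu replicate 1, was found in 281 genes, or 1.57%. With −N replicate 1 left out the log2 difference of NAS1 was 1.40 and that of NAS2 1.30, and with −N replicate 2 left out they were 3.14 and 2.50.

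**Figure D2:**
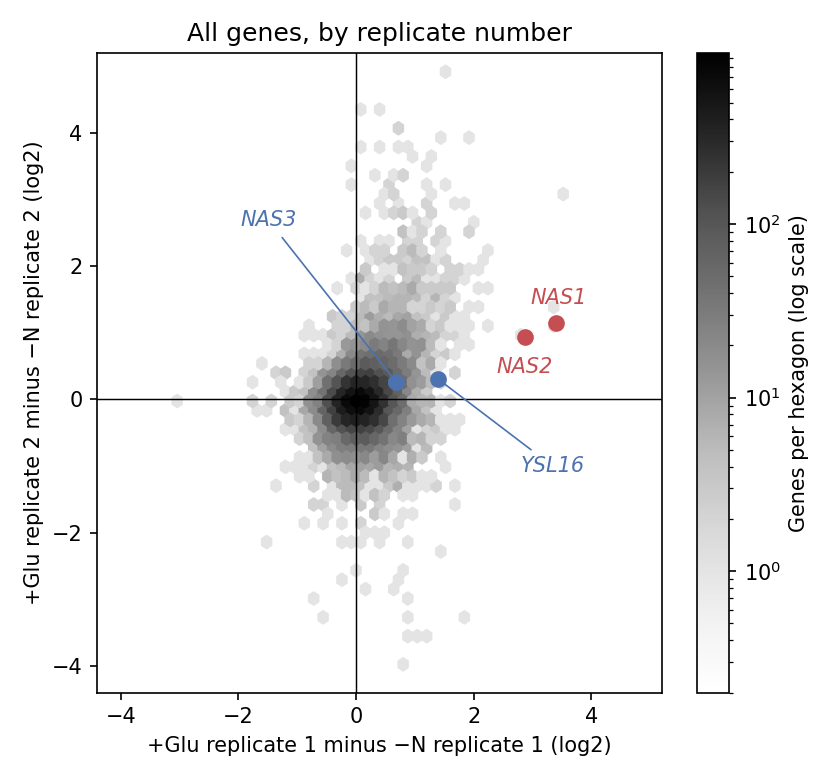
Difference in log2 intensity between +Glu and −N in replicate 1 (horizontal axis) and in replicate 2 (vertical axis) for 17905 genes, shaded by the number of genes per hexagon on a log scale. NAS1 (3.39 and 1.15) and NAS2 (2.88 and 0.93) lie far to the right of the mass of genes, and YSL16 (1.39 and 0.31) and NAS3 (0.69 and 0.26) lie lower on the same side.

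The arrays also differed across the whole genome. The median intensity over all probe sets was 20.1 and 23.9 in −N replicates 1 and 2, and 19.3 and 23.9 in +Glu replicates 1 and 2. At least 2-fold differences between the −N replicates were seen for 1515 genes that were higher and 213 that were lower in replicate 2. Between the +Glu replicates there were 249 such genes higher and 30 lower in replicate 2. In limma, 301 genes (1.68%) were at least 2-fold higher in +Glu with an unadjusted p under 0.05, and 8 genes (0.0447%) were at least 2-fold lower. After Benjamini-Hochberg adjustment 0 genes (0%) had a p under 0.05 in limma, with 749 genes at an unadjusted p under 0.05 and a smallest adjusted p of 0.505. Of 9 root-preferred genes measured, the silicon influx transporter LSI1 was the brightest (7085 to 9275). SCR1 was the dimmest (8.74 to 12.0), and PT6 was dim as well (21.9 to 28.7). The nitrate transporter NRT2.3 was 1177 in −N replicate 2 against 236.4 to 340.4 in the other arrays. The summed intensity of 7 photosynthesis genes, markers of green tissue, was 14459 and 22105 in the −N arrays and 17307 to 19074 in the +Glu arrays. Of these 7 genes, 6 were higher in −N replicate 2 than in replicate 1, as were 8 of the 9 root-preferred genes and 7 of 8 reference genes. The lowest of the 7 photosynthesis genes was RBCS1 (4.01 to 4.91), whereas CAB2R lay between 8748 and 10778. The part of this library difference and of green-tissue transcripts in the values of NAS1 and NAS2 was not tested.

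NAS1 and NAS2 were each other's nearest genes. Likeness was measured as the root mean square difference between log2 intensities over the 4 arrays, after each gene was centred on its own mean, so that it compares shapes and not levels. At 0.28 between NAS1 and NAS2, each ranked first among the 17904 other genes for the other. This pattern includes the contrast that chose them and the arrays share their RNA, so the likeness is a description over 4 arrays. NAS1 and NAS2 are close copies, and binding of the transcript of one to the probes of the other was not tested.

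Genes with names were 2455 of the 17905. After NAS2, the named genes nearest to NAS1 were Agglutinin, a carbohydrate-binding lectin (0.57), Cht6, a chitinase (0.67), AMY3D, an alpha-amylase (0.69), and CM-LOX1, a lipoxygenase (0.70). After NAS1, those nearest to NAS2 were Cht6 (0.52), AMY3D (0.53), CM-LOX1 (0.55) and Cht2, another chitinase (0.56). Their intensities in −N replicates 1 and 2 and +Glu replicates 1 and 2 were 23.2, 40.3, 100.4 and 175.8 for Agglutinin. Cht6 had 74.7, 87.2, 239.7 and 302.8, and CM-LOX1 had 24.6, 21.4, 112.2 and 97.5. For AMY3D and Cht2 the values are those of the brightest probe set. Averaged over all probe sets, the log2 difference fell from 1.24 to 0.71 for AMY3D and from 1.79 to 1.14 for Cht2. Among all genes, named or not, Agglutinin ranked 11 for NAS1, and Cht6 ranked 25 and Cht2 42 for NAS2. The −N and +Glu arrays of all these genes stood apart in the direction of NAS1 and NAS2, as being near to NAS1 or NAS2 in shape requires. They did not copy the order within groups: Agglutinin, Cht6, AMY3D (22.3, 37.4, 60.7 and 77.0) and Cht2 (225.0, 228.8, 708.6 and 870.8) were highest in +Glu replicate 2, the array in which NAS1 and NAS2 were the lower of the +Glu pair.

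**Figure D3:**
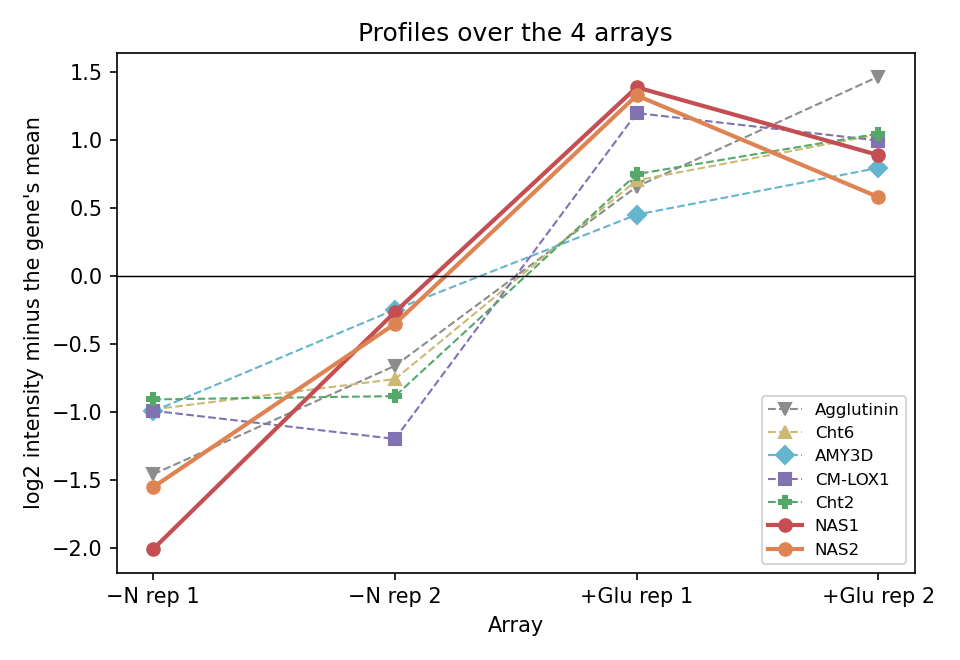
log2 intensity of NAS1, NAS2 and the named genes nearest to them in each of the 4 arrays, minus the mean of the gene over the arrays. Lines only link the points of a gene. NAS1 and NAS2 are 0.28 apart (root mean square) and peak in +Glu replicate 1, whereas all the others but CM-LOX1 peak in +Glu replicate 2.

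The remaining nicotianamine synthase measured, NAS3, had a smaller difference in the same direction as NAS1 and NAS2. Its intensities were 320.4 and 513.0 in the −N arrays and 515.8 and 612.6 in the +Glu arrays. The groups did not overlap, but the gap between −N replicate 2 and +Glu replicate 1 was only 1.01-fold. The log2 difference was 0.47 ± 0.30 (SE, limma), with an unadjusted p of 0.175 and an adjusted p of 1.00. With a replicate block in limma its unadjusted p was 0.0502. By shape, NAS3 ranked 772 among the genes compared with NAS1 (1.01) and 757 among those compared with NAS2 (0.82). Whether the response of NAS3 differed from that of NAS1 or NAS2 was not tested, since the latter were chosen by their response.

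Other genes of iron acquisition were described as a list. A list of 77 names covering phytosiderophore synthesis and transport, ferrous iron uptake and movement, iron storage and regulation of the iron response gave 29 measured genes without NAS1 and NAS2. Only 35 of the names were kept with 1 matching gene, and names such as DMAS1 and FRO1 are not among the 29. Of these 29, 0 were at least 2-fold higher or lower in +Glu with p under 0.05 before adjustment in limma, where 1.68% of all genes were higher and 0.0447% lower. At such shares a list of this size can give 0, so nothing about iron acquisition is read from it. At any fold, 0 of the 29 had an unadjusted p under 0.05, against 4.18% of all genes. This second count depended on the setting: it was 2 with a replicate block (YSL16 and NRAMP6) and 0 to 2 under the other alternatives that kept every array. With a −N array left out, all genes shared 1 spread, so p followed the log2 difference alone and is not counted here. Their log2 differences ran from −0.49 to 0.85, with a median of −0.03 beside 0.03 over all genes, and were positive in 12 and negative in 17. The groups stood apart with +Glu on top in 2 of the 29 (NAS3 and YSL16) and with −N on top in 2 (NRAMP6 and IDEF1), against 14.9% and 10.1% of all genes. Of the 29 genes, 26 were higher in −N replicate 2 than in −N replicate 1. The median of the list turned with the library left out, from −0.35 without −N replicate 1 to 0.35 without −N replicate 2. The median over all genes turned in the same fits, from −0.13 to 0.20.

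**Figure D4:**
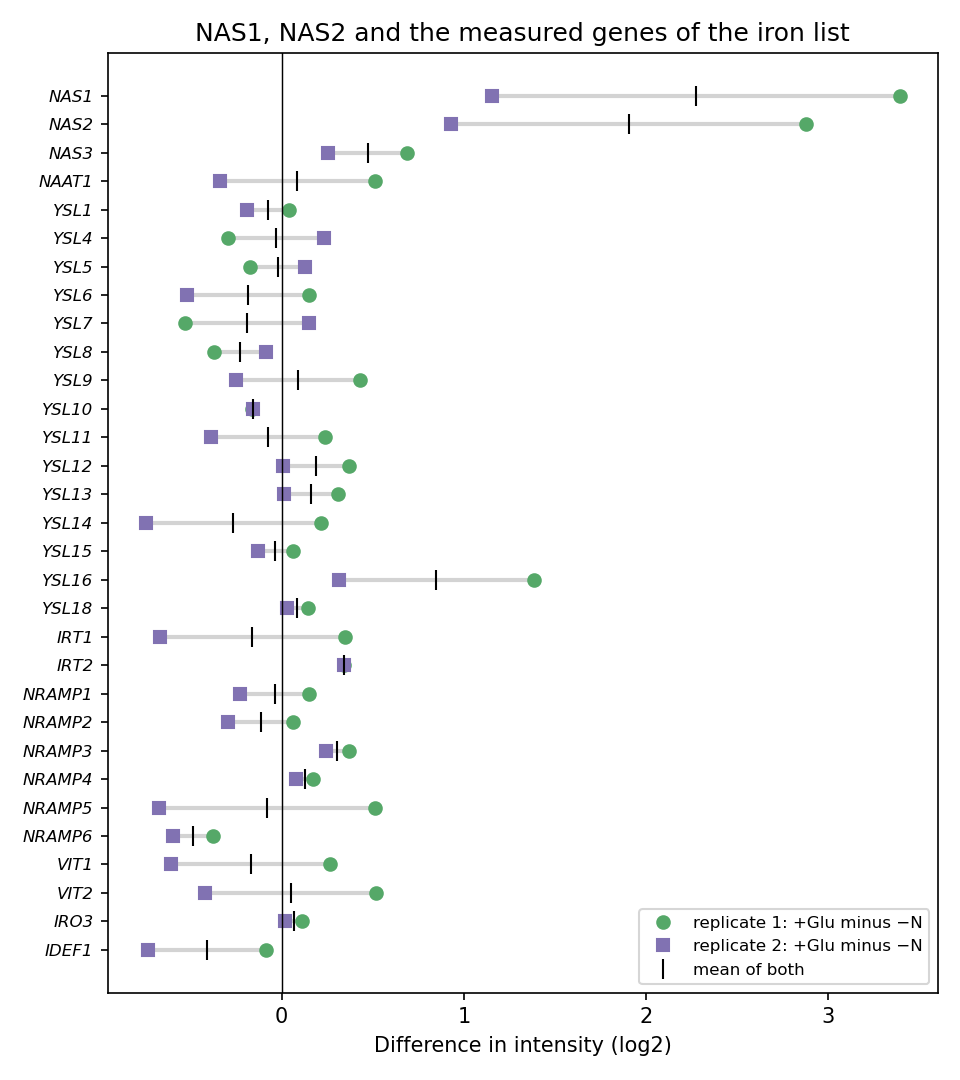
Difference in log2 intensity between +Glu and −N for NAS1, NAS2 and the 29 measured genes of the iron list, in replicate 1 (circle), in replicate 2 (square) and as the mean of both (tick). NAS1 and NAS2 lie above 0.9 in both replicates, and the means of the 29 genes lie between −0.49 and 0.85.

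The step after nicotianamine on the way to phytosiderophores is made by nicotianamine aminotransferase. NAAT1, which encodes it, had 227.0 and 351.1 in −N and 323.8 and 277.3 in +Glu, so its groups overlapped and its log2 difference was 0.09. The YSL proteins carry metals bound to nicotianamine or phytosiderophores across membranes, and 15 of them were measured. YSL16, a transporter of iron and copper bound to nicotianamine or phytosiderophore, had the largest difference of the list. Its intensities were 78.2 and 148.8 in −N and 204.5 and 184.7 in +Glu. It shared the array order of NAS1 and NAS2, but its log2 difference of 0.85 ± 0.35 (SE) had an unadjusted p of 0.0574 and an adjusted p of 1.00 in limma. Its unadjusted p was 0.0311 with a replicate block. The log2 difference of YSL16 rested on the −N arrays: it was 1.31 without −N replicate 2 and 0.39 without −N replicate 1. YSL15, the root transporter of ferric deoxymugineic acid, was dim in every array, at 5.58, 9.27, 5.83 and 8.46. YSL6 and YSL12 were bright, at 719.8 to 1400 and 885.2 to 1397, and had log2 differences of −0.18 and 0.19 with overlapping groups. The other members of the family lay between −0.27 (YSL14) and 0.16 (YSL13).

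Ferrous iron uptake and iron movement were covered by 10 measured genes. IRT1, the ferrous iron transporter of the root surface, had 188.7 and 469.4 in −N and 239.7 and 295.3 in +Glu, so both +Glu arrays fell between the −N arrays. The same held for NRAMP5, a manganese and cadmium uptake transporter that also carries iron (181.5 and 580.2 in −N, 258.9 and 363.5 in +Glu), and for the vacuolar iron transporter VIT2 (559.2 and 1366 in −N, 800.7 and 1020 in +Glu). Their log2 differences were −0.16, −0.08 and 0.05. IRT2, a close relative of IRT1, ran against them, with 59.7 and 22.1 in −N and 75.7 and 28.0 in +Glu and a log2 difference of 0.34. With 1 array left out, the log2 difference of IRT2 ran from −0.38 to 1.06. NRAMP6 was lower in both +Glu arrays (168.4 and 167.0) than in both −N arrays (219.1 and 252.7), with a log2 difference of −0.49 and an unadjusted p of 0.0697 in limma (0.0309 with a replicate block). The others of these 10 genes had log2 differences from −0.17 (VIT1) to 0.30 (NRAMP3).

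Of the regulators, 2 were measured. IDEF1, a transcription factor that binds an iron-deficiency element in promoters and is known to act ahead of the NAS genes, had 65.6 and 107.6 in −N and 61.9 and 64.7 in +Glu, with a log2 difference of −0.41 and an unadjusted p of 0.228. IRO3, a basic helix-loop-helix factor that represses iron-response genes, varied little, at 133.0, 145.7, 143.9 and 147.4 (log2 difference 0.07). Its entry in the gene table also carries the name of IRO2, so IRO2 was not analysed here. No gene for ferritin, the iron storage protein, was matched.

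S-adenosylmethionine, the substrate of nicotianamine synthase, comes from methionine, and the methionine cycle recovers the methylthioadenosine that the synthase gives off. In limma, 0 of 8 measured genes of this list passed the 2-fold thresholds in either direction (background 1.68% and 0.0447%), and their log2 differences ran from −0.16 to 0.26 with a median of −0.06. The S-adenosylmethionine synthetases SAM1 and SAM2 differed little between groups. SAM1 was measured as 11387 and 10394 without glutamate, then 10902 and 9943 with it. SAM2 had 3592 and 3926 in −N and 4185 and 4291 in +Glu, a log2 difference of 0.17. MTK1, the methylthioribose kinase of the recycling route, had 778.5 and 919.4 in −N and 970.8 and 1051 in +Glu (0.26). Groups that did not overlap were seen in 4 of the 8 genes, with +Glu higher in 2 (SAM2 and MTK1) and lower in 2 (ARD1 and ARD4), against 14.9% and 10.1% of all genes. All 4 differences were below 2-fold. IDI2, named for an iron-deficiency-induced gene of the same cycle in barley, had overlapping groups (38.6 and 102.3 in −N, 66.6 and 79.4 in +Glu). METK3, a further synthetase, and ARD2 had log2 differences of −0.05 and −0.07, and ARD1 and ARD4 had −0.16 and −0.15. ARD genes encode acireductone dioxygenases of the cycle, but the entries matched to ARD1 and ARD2 also carry names of heat shock factors, so which transcript those probe sets measure is uncertain.

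Other pathways drawing on S-adenosylmethionine gave 3 measured genes, with 0 past the 2-fold thresholds (1.68% of all genes higher and 0.0447% lower). ACS2, an ethylene precursor synthase, had 39.2 and 52.9 in −N and 49.6 and 81.3 in +Glu (log2 difference 0.48). ACS1 had a log2 difference of −0.13, and SAMDC, which provides the aminopropyl donor of polyamines, had 0.05.

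Among 14 measured genes for zinc, copper and other metals, 1 passed the 2-fold thresholds, as a higher gene (1.68% of all genes higher, 0.0447% lower). ZIP8, a metal transporter of the ZIP family, had 51.2 and 45.5 in −N and 89.2 and 118.7 in +Glu, so its groups did not overlap. In limma its log2 difference was 1.09 ± 0.25 (SE), with an unadjusted p of 0.00578 and an adjusted p of 0.723. The call was lost without +Glu replicate 2 and with 16 added to each intensity before log2, at a log2 difference of 0.89 in each case. COPT1, a copper transporter, was lower in +Glu (1723 and 2027) than in −N (2481 and 4436), with a log2 difference of −0.83 and an unadjusted p of 0.0534. That limma p was 0.0101 with a replicate block, 0.0238 after quantile normalization, 0.0175 after median centring and 0.0555 with 16 added. The log2 difference was −1.25 without −N replicate 1 and −0.41 without −N replicate 2. HMA2, a pump that loads zinc for transport to the shoot, was dim and differed by 0.59 on the log2 scale, and ZIP5 differed by 0.53. Among the 14 genes, groups that did not overlap were seen with +Glu higher in 7 and lower in 3, against 14.9% and 10.1% of all genes. The median log2 difference was 0.17.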

How the data were processed

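Per the submitters' processing notes, the authors used GCOS and RMA (no version is given in the sources used here). Which of them gave the deposited values is not known. Each probe set has 1 deposited intensity per array, on a linear scale, and its log2 was taken without further normalization. The medians of the arrays were unequal (19.3 to 23.9), so the values are not assumed to be normalized to each other. Control probe sets (123) were left out. Of the others, 22436 had 1 gene in the array annotation, 95 had several and 34727 had none. A gene was represented by its single-gene probe set with the highest mean. NAS1 and NAS2 have 1 each. Detection calls were not used, so a dim value may be background. The number of arrays limits the precision.

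+Glu was compared with −N by limma 3.58.1 in R 4.3.3 (lmFit and eBayes, no block, two-sided), over 17905 genes with Benjamini-Hochberg adjustment. A gene passed at 2-fold or more with an unadjusted p under 0.05. With 2 arrays per group, the fit rests on a spread shared over genes. The fit was tested on simulated data. Python 3.11.15, pandas 2.3.3 and matplotlib 3.10.9 were used for tables and plots. All symbols come from the gene table, matched by symbol or synonym with an optional Os prefix.

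The members and gene lists were chosen with earlier results of these data known. Named genes are all measured genes of the iron and methionine lists, up to 4 of each other list with the largest differences and any past the thresholds, and the 5 named genes nearest in shape to NAS1 and to NAS2. TOM1, TOM2 and IRO2 were left out because their entries in the gene table are not those genes or are shared. Alternatives were a replicate block, leaving out each array, quantile normalization, median centring, adding 16 before log2, a minimum mean log2 of 5, averaging probe sets, and leaving out probe sets ending in _x_at or _s_at.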

Additional observations from a re-analysis of the deposited data

How the results depend on the processing

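NAS1 and NAS2 were higher in +Glu under all 11 alternatives, but this contrast chose them and their groups did not overlap. Leaving out 1 array could therefore not change the direction, and the count is a description only. The replicate block, the minimum mean, averaging probe sets and leaving out _x_at or _s_at probe sets gave their main values unchanged. The log2 difference of NAS1 was 1.40 to 3.14 with 1 array left out, and that of NAS2 1.30 to 2.50. It was 2.22 and 1.85 after quantile normalization, 2.3 and 1.93 after median centring, and 1.94 and 1.64 with 16 added before log2. Genes at least 2-fold higher numbered 196 to 618 with 1 array left out. Genes at least 2-fold lower numbered 14 to 252 with 1 array left out, 14 after quantile normalization and 3 with 16 added. Genes at an adjusted p under 0.05 numbered 0 to 604 with 1 array left out (604 without −N replicate 1, 562 without −N replicate 2) and 1 after median centring. In such fits the lone array is assumed to vary like the other group. Without a −N array all genes shared 1 spread, so p followed the log2 difference alone. Genes of the iron list past the thresholds numbered 0 to 1 with 1 array left out. With the replicate block, 332 genes were higher, 15 lower, 0 at an adjusted p under 0.05 and 0 of the iron list past the thresholds (2 of them at an unadjusted p under 0.05 at any fold), and the log2 differences of NAS1 and NAS2 stayed 2.27 and 1.90. The labels do not say whether a replicate number marks a shared batch, and only 2 pairs of arrays share one, so the main fit had no block. The deviations of arrays with the same number correlated at 0.43 across genes. Genes at least 2-fold higher and lower in +Glu were 369 and 35 within replicate 1, and 488 and 190 within replicate 2. Across numbers they were 1338 and 74 (−N replicate 1, +Glu replicate 2) and 413 and 690 (−N replicate 2, +Glu replicate 1). Pairing was not tested, and unadjusted p-values with and without the block differed. For the other named genes, 0 of 657 values reversed a called direction, 6 lost a call and 5 moved. ZIP8, the only list gene called in the main fit, kept its call in 9 of 11 alternatives, AMY3D in 7. Uncalled genes could not reverse or lose one, even with a sign change or gained call. IRT1, for example, ran from −0.82 to 0.50 over the alternatives. The cause of these shifts was not tested. With 2 arrays per group, small differences may not be detectable, and p-values cover the spread between these replicates only.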
